A study of Homo sapiens with 27 samples.

Results

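The transcripts described here are those of 9 genes whose proteins build or hold the tight junction: the claudins CLDN1, CLDN3, CLDN4 and CLDN7, occludin (OCLN), tricellulin (MARVELD2), junctional adhesion molecule A (F11R), and the scaffolds ZO-1 (TJP1) and ZO-3 (TJP3). They were picked by gene symbol from the 36536 genes of the deposited table, and rows that shared a symbol were summed. The cells were MCF10A, a widely used line of human mammary epithelium that does not form tumours. They were kept in growth medium (5% horse serum, EGF, the epidermal growth factor, at 20 ng/ml) and then held for 18 h without added growth factors. Libraries labelled T0 were collected at 0 h. All other libraries were collected after 24 h with phosphate-buffered saline (PBS), with EGF, OSM (oncostatin M, a cytokine related to interleukin-6) or transforming growth factor beta (TGFB), or with EGF+OSM, EGF+TGFB, OSM+TGFB or EGF+OSM+TGFB, each ligand at 10 ng/ml. There were 3 libraries per group and 27 altogether. Nothing in the labels says that the 3 libraries of a group came from separate cultures, so the p-values measure the spread between these libraries, which may be technical.

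Tight junctions seal neighbouring epithelial cells near their apical border. Claudins form the strands and set which ions pass, occludin and tricellulin belong to the MARVEL family and sit in those strands, with tricellulin concentrated where the corners of several cells meet, and F11R is an immunoglobulin-type adhesion protein that takes part in junction assembly and polarity. ZO-1 and ZO-3 lie beneath the membrane and tie these proteins to actin. In mammary epithelium, loss of claudins and occludin is a textbook feature of cells that lose their epithelial character, and Snail and ZEB repressors are known to act through E-box sequences in the promoters of such genes.

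Levels are CPM (counts per 1 M, mega, of the library) after TMM scaling (trimmed mean of M-values). The libraries held between 30.1 M and 52.9 M counts (median 39.5 M). By the root mean square difference in log2 CPM, all 27 libraries lay nearest to a library of their own group, and the mean distance to the own group ran from 0.416 to 0.504, OSM replicate 3 being at the upper end. The markers fixed for the line were present in every library, among them CDH1 at 143 to 676 CPM, KRT5 at 3313 to 9188 CPM and TP63 at 84.3 to 199 CPM. KRT14, KRT17, KRT18 and EGFR were at 109 CPM or more. EPCAM was much lower, at 2.72 to 18.6 CPM. Of the 11 markers fixed for other cell types, COL3A1, CDH5, CLDN5 and CD3E had 0 to 6 counts per library and PTPRC 0 to 10. PDGFRB had 3 to 49 counts, PECAM1 6 to 93 and VWF 0 to 144, with 3 libraries at 0, while DCN (7.42 to 103 CPM), COL1A1 (3.82 to 118 CPM) and CD68 (20.2 to 50.4 CPM) were measured in all libraries. In bulk RNA, fewer cells with a transcript and less of it per cell cannot be told apart.

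The upstream windows of the genes, 250 bases before the start of the annotated transcript, were read from RefSeq (GRCh38.p14), which gave a window for 8 of the 9 genes (not F11R). Where a gene had several annotated starts, the window at the start of the canonical transcript was used. These windows were searched for the E-box CAGGTG, which reads CACCTG on the other strand, and 2 of the 8 held it. CLDN7 had 4 matches, at 174, 135, 20 and 9 bases before the start, where 17.5% of the 35116 windows in the table held at least 1 and 0.464% held at least 3. OCLN had 1 match, at 133 bases before the start. A window at another annotated start held 1 match in each of OCLN, TJP1 and TJP3, at 33, 88 and 7 bases before that start. The window at the other annotated start of CLDN7 and the remaining windows of TJP1 held 0. The count thus depends on the start chosen. CLDN7 and OCLN were called lower than PBS in all 6 treatments that contained EGF or OSM, but so were CLDN4, MARVELD2 and TJP3, whose canonical windows held no E-box. The sites with a match are shown with the E-box in capitals and the strand of the gene read 5′ to 3′.
CLDN7 at chr17:7262635-7262664, minus strand: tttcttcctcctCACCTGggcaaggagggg
CLDN7 at chr17:7262596-7262625, minus strand: cgacttccggttCAGGTGagtgtcccttcg
CLDN7 at chr17:7262479-7262508, minus strand: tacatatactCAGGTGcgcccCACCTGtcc
OCLN at chr5:69492645-69492674, plus strand: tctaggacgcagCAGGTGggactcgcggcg
In GENCODE v44 all 30 bases of each CLDN7 site also lie in an exon of a longer CLDN7 transcript, and 15 of the 30 bases of the OCLN site lie in an exon. A match describes the letters only. It was not tested whether any protein binds there.

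CLDN4, with the largest fold change against PBS among CLDN1, CLDN4 and CLDN7, held no E-box match. It held the AP-1-type sequence TGANTCA (N is any base, and the pattern is its own reverse complement). The matches were TGATTCA and TGACTCA, at 242 and 161 bases before its start. Of all windows, 6.57% held this sequence at least once and 0.402% held it more than once. CLDN4 was the only one of the 8 windows with it.
CLDN4 at chr7:73830746-73830775, plus strand: ctgggctgTGATTCAgtgtctgtctcccgg
CLDN4 at chr7:73830823-73830852, plus strand: gagactggatagTGACTCAgggacccgggg
Both sites lie within exons of longer annotated CLDN4 transcripts. TJP3, which had the widest range of the 9 genes, is shown over the 228 bases of its window that lie outside annotated exons. The SMAD-type sequence CAGACA, which reads TGTCTG on the other strand and is held by 13.6% of all windows and by 2 of these 8, is shown in capitals. A further match lay 14 bases before the start. The other window was that of CLDN4, with 1 match at 234 bases before the start, which lies in the first CLDN4 site above and is not capitalised there.
TJP3 at chr19:3708134-3708361, plus strand: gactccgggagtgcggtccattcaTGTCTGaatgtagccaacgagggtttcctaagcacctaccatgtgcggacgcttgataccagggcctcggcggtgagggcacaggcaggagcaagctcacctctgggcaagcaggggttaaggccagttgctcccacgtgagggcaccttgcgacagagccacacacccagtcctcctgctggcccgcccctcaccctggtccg
None of the 8 windows held the grainyhead-like sequence AACCNGTT (1.49% of all windows) or the STAT sequence TTCNNNGAA (6.57%). Matches of the GC box GGGCGG (SP1) were found in 7 of the 8 windows and in 42.6% of all, and the ETS core AGGAAG in 5 of the 8 and in 28.7% of all.

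In PBS, levels per kilobase of the canonical transcript put CLDN7 first at 167 ± 17.2 CPM per kilobase (SD, n = 3). F11R followed at 82.7 ± 2.18 and CLDN4 at 82.1 ± 10.1, which did not differ beyond their spread. TJP1 (24.7 ± 0.432), CLDN1 (18.6 ± 3.39), TJP3 (15.9 ± 1.83), OCLN (13.6 ± 0.709) and MARVELD2 (10.8 ± 0.566) came next on the same scale. The CLDN7 level may be doubled, because the table held 2 rows with identical values for this symbol. That does not touch its fold changes. OCLN, TJP1 and MARVELD2 also had 2 rows each, of which the larger held 58.7%, 69.5% and 92.9% of the counts. CLDN3 had 17 counts over all 27 libraries, 0 in 21 of them and at most 7 in any, so it was listed near the limit of detection and not tested. Its neighbour CLDN4, 29.3 kilobases away on chromosome 7, was at 125 CPM or more in PBS.

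**Figure D1:**
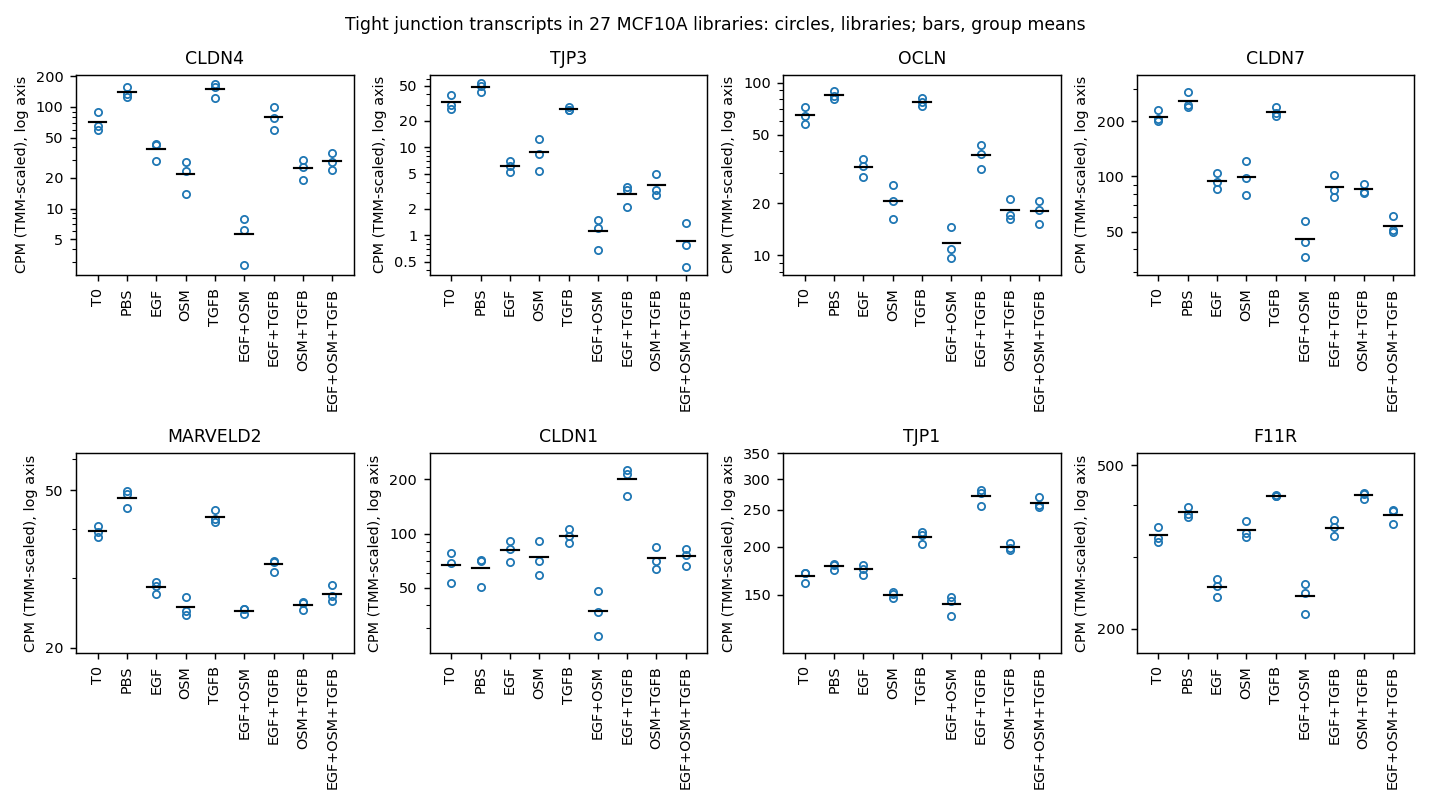
CPM after TMM scaling (log axis) of 8 tight junction genes in the 9 groups; circles are the 3 libraries of a group and bars their mean. All 8 genes are lowest or next to lowest in EGF+OSM. CLDN1 peaks in EGF+TGFB at 161 to 225 CPM, and TJP1 is highest in the groups with EGF and TGFB together.

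The claudins are described first. CLDN4 (ENSG00000189143, chromosome 7, 73799542 to 73832690, plus strand, GRCh38), a sealing claudin of many glandular epithelia, stood at 134, 158 and 125 CPM in the PBS libraries. With EGF it was at 42.1, 43.0 and 29.7 CPM, and with OSM at 23.2, 28.6 and 13.8 CPM. With EGF+OSM it was at 6.17, 7.91 and 2.76 CPM. Neither single ligand's libraries overlapped PBS, and the EGF+OSM libraries lay below all others. CLDN4 fell by 1.86 ± 0.28 on the log2 scale with EGF (SE, adjusted p = 6.0e-06 by edgeR) and fell by 2.66 ± 0.29 with OSM (adjusted p = 1.3e-07). Under EGF+OSM its level was 24.7-fold lower than with PBS (adjusted p = 1.3e-10). TGFB alone left it at 158, 167 and 124 CPM, which overlapped PBS (log2 change 0.11 ± 0.27, adjusted p = 0.801).

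CLDN4 was higher wherever TGFB was given together with EGF. EGF+TGFB libraries held 78.0, 101 and 59.7 CPM and EGF+OSM+TGFB libraries 28.6, 35.2 and 23.8 CPM. Adding TGFB to EGF raised CLDN4 by 1.06 ± 0.28 (log2, adjusted p = 0.00303), and adding it to EGF+OSM raised it by 2.37 ± 0.34 (adjusted p = 4.7e-06), a 5.16-fold difference without overlap of libraries. Adding TGFB to OSM gave 25.9, 30.3 and 19.1 CPM, which overlapped OSM alone (0.19 ± 0.30, adjusted p = 0.632). The comparison of EGF+TGFB with PBS was a fall of 0.80 ± 0.27 (adjusted p = 0.012), and this call was lost without EGF+TGFB replicate 3 (adjusted p = 0.0732).

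CLDN7 (ENSG00000181885, chromosome 17, 7259903 to 7263983, minus strand), a claudin found along the lateral membrane as well as at the junction, stood at 240, 288 and 245 CPM in PBS. EGF libraries held 93.0, 105 and 85.6 CPM and OSM libraries 98.3, 121 and 79.3 CPM, so that the 2 ligands gave overlapping levels, both below PBS. EGF+OSM libraries held 43.6, 56.8 and 36.1 CPM. CLDN7 fell by 1.45 ± 0.15 with EGF (log2, adjusted p = 2.1e-08), by 1.38 ± 0.15 with OSM (adjusted p = 7.0e-08) and by 2.50 ± 0.16 with both (adjusted p = 4.4e-12). TGFB gave no called change of CLDN7 on any of the 4 backgrounds: the log2 change was -0.20 ± 0.15 alone, -0.11 ± 0.15 on EGF, -0.23 ± 0.15 on OSM and 0.24 ± 0.16 on EGF+OSM, with adjusted p of 0.327, 0.586, 0.218 and 0.202. With the replicate number as a block in the fit, CLDN7 was called lower alone (adjusted p = 0.0255) and on OSM (0.0119), and higher on EGF+OSM (0.00521).

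CLDN1 (ENSG00000163347, chromosome 3, 190305707 to 190322446, minus strand), the claudin best known for the barrier of stratified epithelia, followed another order. PBS libraries held 70.9, 70.5 and 50.5 CPM, EGF 82.5, 90.8 and 69.4 CPM, and OSM 70.7, 91.2 and 59.1 CPM. These 3 groups overlapped, and neither ligand alone gave a called change (EGF 0.34 ± 0.20, adjusted p = 0.139, and OSM 0.21 ± 0.20, adjusted p = 0.396). With the replicate number as a block, CLDN1 was called higher with EGF (0.34, adjusted p = 0.00226) and not with OSM. EGF and OSM together gave 36.6, 47.6 and 26.9 CPM, below every PBS library, a fall of 0.79 ± 0.21 on the log2 scale (adjusted p = 0.00194). EGF+TGFB gave 214, 225 and 161 CPM, the highest of all groups and 3.12-fold above PBS (1.64 ± 0.21, adjusted p = 4.0e-07). Adding OSM to EGF+TGFB returned it to 76.3, 81.6 and 65.9 CPM, a fall of 1.42 ± 0.20 (adjusted p = 1.9e-05). TGFB alone gave 96.3, 106 and 88.2 CPM, above PBS without overlap (0.60 ± 0.20, adjusted p = 0.0258), but this call was lost without PBS replicate 3 (adjusted p = 0.131), TGFB replicate 1 (0.0553) or TGFB replicate 2 (0.0911), and with no filter on low counts (0.065).

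OCLN (ENSG00000197822, chromosome 5, 69492292 to 69558104, plus strand), the first integral protein of the junction to be known, stood at 80.5, 89.0 and 83.1 CPM in PBS. EGF libraries held 32.9, 36.0 and 28.4 CPM, OSM libraries 20.5, 25.5 and 16.1 CPM, and EGF+OSM libraries 10.9, 14.5 and 9.58 CPM. The 4 groups formed separate steps without overlap. OCLN fell by 1.37 ± 0.15 with EGF, by 2.02 ± 0.16 with OSM and by 2.85 ± 0.17 with both (log2, adjusted p = 6.3e-08, 4.1e-10 and 1.2e-12). Adding TGFB to EGF+OSM raised it to 18.2, 20.7 and 15.2 CPM (0.62 ± 0.18, adjusted p = 0.00406), which no longer overlapped EGF+OSM. TGFB alone gave 76.7, 80.9 and 73.6 CPM, which overlapped PBS (-0.13 ± 0.15, adjusted p = 0.555).

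MARVELD2 (ENSG00000152939, chromosome 5, 69415065 to 69444330, plus strand, 48.0 kilobases from OCLN) moved over a narrower range. It stood at 49.7, 49.0 and 45.0 CPM in PBS, at 27.4, 29.4 and 28.7 CPM with EGF, and at 24.2, 26.9 and 24.8 CPM with OSM. EGF+OSM libraries held 25.0, 25.0 and 24.3 CPM, inside the range of OSM alone. The falls were 0.75 ± 0.05 with EGF, 0.92 ± 0.05 with OSM and 0.95 ± 0.05 with both (log2, adjusted p = 1.8e-12, 8.1e-14 and 1.3e-14). Adding EGF to OSM thus changed MARVELD2 by -0.03 ± 0.05 (adjusted p = 0.625), where adding it to PBS changed it by -0.75. TGFB alone gave a small fall (-0.16 ± 0.05, adjusted p = 0.0155). That call was lost without PBS replicate 1 or 2 or TGFB replicate 1 (adjusted p = 0.0754, 0.0636 and 0.0741) and when the larger row stood for the symbol (0.229).

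F11R (ENSG00000158769, chromosome 1, 160995211 to 161021343, minus strand) varied least among groups, its highest group mean being 1.76 times its lowest. PBS libraries held 381, 395 and 375 CPM. EGF libraries held 239, 265 and 254 CPM, a fall of 0.60 ± 0.06 (log2, adjusted p = 3.5e-10) without overlap, and EGF+OSM libraries 244, 258 and 218 CPM (-0.68 ± 0.06, adjusted p = 2.7e-11). The T0 libraries held 355, 333 and 325 CPM, which groups with both EGF and TGFB overlapped or exceeded: EGF+TGFB libraries held 354, 368 and 336 CPM and EGF+OSM+TGFB libraries 389, 387 and 360 CPM. Adding TGFB raised F11R by 0.48 ± 0.06 on EGF and by 0.66 ± 0.06 on EGF+OSM (adjusted p = 5.9e-08 and 1.6e-10). The change with OSM (-0.14 ± 0.06, adjusted p = 0.0303) was lost without PBS replicate 1 or 2 or OSM replicate 1 or 3, with adjusted p from 0.0513 to 0.123. The change with OSM+TGFB (0.14 ± 0.06, adjusted p = 0.026) was lost with other size factors (adjusted p = 0.0636), upper-quartile scaling (0.383), DESeq2 (0.0553) or no filter (0.0975), and without PBS replicate 1 or 3 or OSM+TGFB replicate 2 or 3 (0.0615 to 0.083).

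The 2 scaffolds went separate ways. TJP3 (ENSG00000105289, chromosome 19, 3708362 to 3750813, plus strand) had the widest range of all members: its mean was 56.7 times higher in PBS than with the 3 ligands together. PBS libraries held 42.8, 54.0 and 49.6 CPM. EGF libraries held 6.19, 7.02 and 5.27 CPM, OSM libraries 8.40, 12.6 and 5.45 CPM, and EGF+OSM libraries 1.22, 1.49 and 0.68 CPM. EGF and OSM overlapped each other and lay far below PBS, and their combination lay below both. The log2 changes were -2.98 ± 0.25, -2.45 ± 0.25 and -5.42 ± 0.32 ( adjusted p = 9.3e-10, 2.0e-08 and 1.3e-12).

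TGFB alone lowered TJP3 to 26.9, 29.1 and 26.9 CPM (-0.82 ± 0.23, adjusted p = 0.0072), and it did so again on EGF (-1.06 ± 0.30, adjusted p = 0.0046) and on OSM (-1.26 ± 0.28, adjusted p = 8.2e-04). EGF+TGFB libraries held 2.12, 3.28 and 3.53 CPM and OSM+TGFB libraries 3.31, 4.94 and 2.87 CPM, which overlapped each other and lay below every library of a single ligand. With all 3 ligands TJP3 was at 0.78, 1.36 and 0.44 CPM, from 32, 39 and 14 counts, which overlapped EGF+OSM (-0.43 ± 0.49, adjusted p = 0.466). TJP3 was thus the member that TGFB lowered on PBS, EGF and OSM, and it was not called higher in any comparison in which TGFB was added.

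TJP1 (ENSG00000104067, chromosome 15, 29699367 to 29968915, minus strand) stood at 179, 180 and 174 CPM in PBS. EGF gave 175, 179 and 169 CPM, which overlapped PBS (-0.03 ± 0.05, adjusted p = 0.636), and OSM gave 147, 151 and 153 CPM, below every PBS library (-0.24 ± 0.05, adjusted p = 5.9e-05). TGFB gave 218, 215 and 203 CPM, above every PBS library (0.25 ± 0.05, adjusted p = 9.1e-05). EGF+TGFB gave 281, 276 and 255 CPM and EGF+OSM+TGFB 269, 257 and 254 CPM, the 2 highest groups, which overlapped each other. They were 1.52-fold and 1.46-fold above PBS (adjusted p = 8.3e-12 and 5.3e-11). The smaller rise with OSM+TGFB (0.17 ± 0.05, adjusted p = 0.00244) was lost under upper-quartile scaling (0.08, adjusted p = 0.123).

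**Figure D2:**
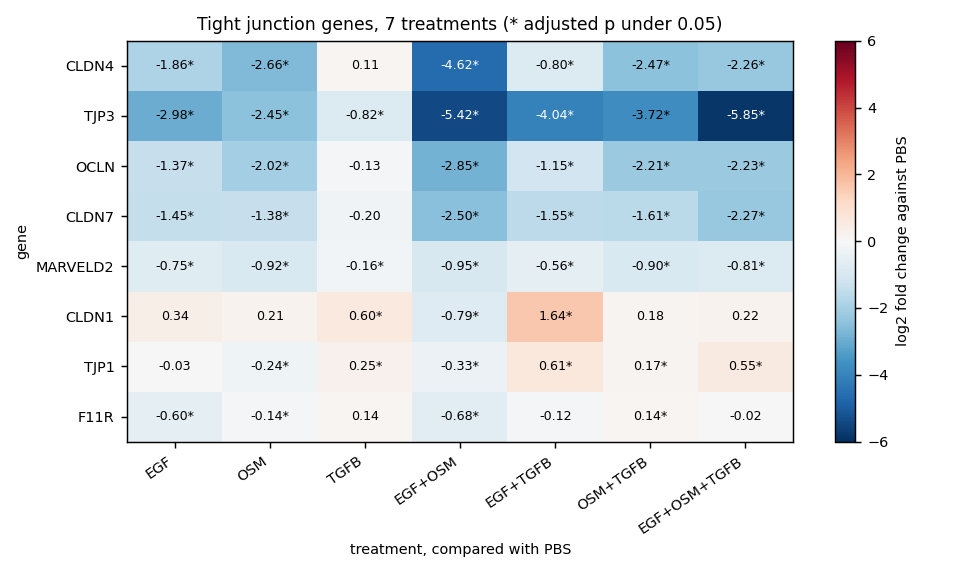
Log2 fold change of 8 tight junction genes (rows) with each of 7 treatments against PBS (columns); an asterisk marks an adjusted p under 0.05. Values are below 0 in all 7 columns for CLDN7, TJP3, OCLN and MARVELD2, and CLDN1 reaches 1.64 with EGF+TGFB.

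Counted over the 8 tested members, EGF against PBS gave 0 higher and 6 lower, where 34.9% of the 15575 genes tested were called higher and 38.6% lower. OSM gave 0 higher and 7 lower against 33.5% and 29.8% of all genes. Without OSM replicate 3, 6 were called with OSM. TGFB gave 2 higher (CLDN1, TJP1) and 2 lower (TJP3, MARVELD2) against 19.9% and 15.8%, and without TGFB replicate 1 only TJP1 and TJP3 were called. With EGF+OSM all 8 were lower, where 39.6% of all genes were called lower and 37.6% higher. EGF+TGFB gave 2 higher (CLDN1, TJP1) and 5 lower against 36.2% and 37.5%, and OSM+TGFB gave 2 higher (TJP1, F11R) and 5 lower against 34.2% and 31.8%. EGF+OSM+TGFB gave 1 higher (TJP1) and 5 lower against 37.7% and 36.7%. The members' median log2 change was -1.06 with EGF, -1.15 with OSM, -0.01 with TGFB and -1.73 with EGF+OSM. The median of all genes tested lay between -0.07 and 0.00 in these 4 comparisons, which share the PBS libraries.

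PBS libraries were compared with T0, which differ by 24 h in medium without ligand. CLDN4 rose from 64.7, 88.9 and 59.1 CPM to its PBS level (0.97 ± 0.27 on the log2 scale, adjusted p = 0.0084). MARVELD2 rose by 0.28 ± 0.05 (adjusted p = 1.1e-04), F11R by 0.18 ± 0.06 (adjusted p = 0.0109) and TJP3 by 0.59 ± 0.23 (adjusted p = 0.048). The 4 calls higher and 0 lower compare with 16.2% and 18.9% of all genes. Without T0 replicate 3 or PBS replicate 2 only 2 were called: F11R then had adjusted p of 0.0598 and 0.052, and TJP3 0.128 and 0.149. TJP3 was also lost without T0 replicate 1 (0.17) or PBS replicate 3 (0.103), with DESeq2 (0.117), with no filter (0.0973) and with the rows as deposited (0.0666). OCLN (0.38 ± 0.15, adjusted p = 0.0575) and CLDN7 (0.28 ± 0.15, 0.143) were not called. OCLN passed with DESeq2 (0.0302), the replicate block (6.2e-05), the compared groups alone (0.00287) and without T0 replicate 2 (0.0444). CLDN7 passed with the replicate block (0.00158) and the compared groups alone (0.0126).

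Next, groups given a ligand together with others were compared with groups given the others alone. Combined ligands were listed as 1 treatment of 24 h, and "added to" stands for this comparison of separate groups. EGF added to OSM gave 0 higher and 6 lower (background 29.9% and 31.8%), and EGF added to TGFB gave 2 higher and 6 lower (33.9% and 35.5%). EGF added to OSM+TGFB gave 1 higher (TJP1) and 3 lower (CLDN7, F11R, TJP3), with 26.3% and 25.9% of all genes. There CLDN4 (0.22 ± 0.30, adjusted p = 0.573) and OCLN (-0.02 ± 0.17, adjusted p = 0.953) were not called. The F11R call (adjusted p = 0.0167) was lost with no filter (0.0702) and without OSM+TGFB replicate 2 (0.0535) or EGF+OSM+TGFB replicate 3 (0.1).

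OSM added to EGF gave 0 higher and 7 lower (17.8% and 17.1%), OSM added to TGFB 0 higher and 5 lower (30.1% and 26.4%), and OSM added to EGF+TGFB 0 higher and 6 lower (13.6% and 12.8%). CLDN4, CLDN7, OCLN, MARVELD2 and TJP3 were lower in all 3 of these comparisons and with OSM alone. The OSM-linked fall of CLDN4 was between 1.45 ± 0.29 (on EGF+TGFB) and 2.76 ± 0.33 (on EGF).

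TGFB added to EGF gave 5 higher (CLDN1, CLDN4, F11R, MARVELD2, TJP1) and 1 lower (TJP3), with 27% and 27.7% of all genes called. TGFB added to OSM gave 2 higher (F11R, TJP1) and 1 lower (TJP3), with 26.1% and 25.6%. TGFB added to EGF+OSM gave 6 higher (CLDN1, CLDN4, F11R, MARVELD2, OCLN, TJP1) and 0 lower, with 31.6% and 29.5%. MARVELD2 in the last comparison (0.14 ± 0.05, adjusted p = 0.0245) was lost without EGF+OSM replicate 3 (0.0783) or EGF+OSM+TGFB replicate 2 (0.143), with other size factors (0.0751), DESeq2 (0.0953), no filter (0.0998) or the compared groups alone (0.0954).

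**Figure D3:**
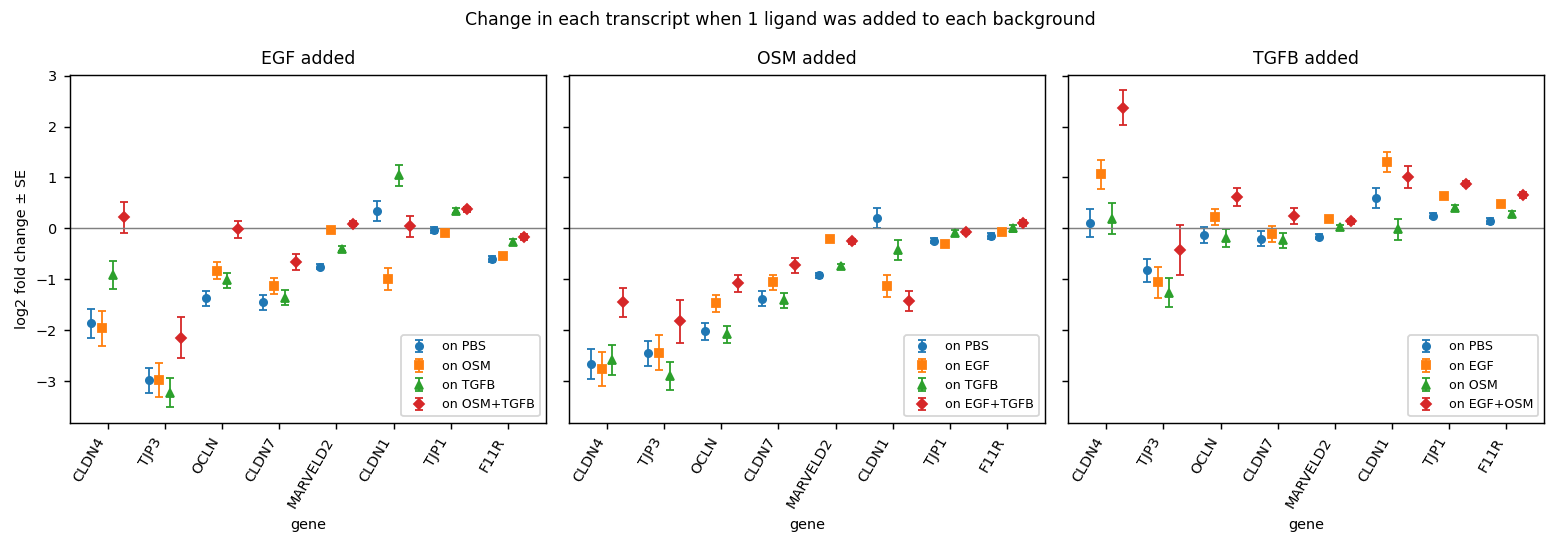
Log2 fold change ± SE of each gene when EGF (left), OSM (middle) or TGFB (right) was added to each of 4 backgrounds. OSM lowers CLDN4, TJP3, OCLN, CLDN7 and MARVELD2 on every background, and TGFB raises CLDN4 by 2.37 on EGF+OSM but changes it by 0.11 on PBS.

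The series asks whether responses to combined ligands are the sum of single responses. The departure from additivity subtracts the summed log2 changes of the single ligands from that of the combination, with PBS as the reference throughout, so additive changes give 0. For EGF+OSM, 2 members departed: CLDN1 lay 1.33 ± 0.29 below the sum (departure -1.33, adjusted p = 0.00106) and MARVELD2 0.72 ± 0.08 above it (adjusted p = 2.6e-08). Of all genes, 38.7% departed in either direction. OCLN (0.54 ± 0.23, adjusted p = 0.0675) missed the threshold. It passed with DESeq2 (0.0272), with the replicate block (1.6e-04) and without OSM replicate 2 (0.0144) or EGF+OSM replicate 3 (0.0332). CLDN7 also passed with the block (0.32, adjusted p = 0.0111). For CLDN4 the EGF+OSM change of -4.62 lay 0.10 ± 0.44 from the sum (departure -0.10, adjusted p = 0.888), and for TJP3 the departure was 0.01 ± 0.55 (adjusted p = 0.991).

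For EGF+TGFB, 3 members lay above the sum: TJP1 by 0.38 ± 0.07, MARVELD2 by 0.35 ± 0.07 and F11R by 0.34 ± 0.08 (adjusted p = 1.0e-04, 7.6e-04 and 0.00157), with 29.8% of all genes departing. CLDN1 (0.70 ± 0.28, adjusted p = 0.0689) and CLDN4 (0.95 ± 0.38, adjusted p = 0.0692) missed the threshold. Without EGF+TGFB replicate 3 both passed it (adjusted p = 0.0228 and 0.0276), which made 5 members. CLDN1 also passed it with DESeq2 (0.0497) and without PBS replicate 3 (0.0367). The replicate block brought CLDN1 (2.8e-04), CLDN4 (2.1e-04) and OCLN (0.00819) under the threshold. For OSM+TGFB, edgeR called 0 of the 8 (3 at an unadjusted p under 0.05: CLDN1, MARVELD2 and TJP1), with 23.3% of all genes departing, and DESeq2 called 1 (TJP1, adjusted p = 0.0486). MARVELD2 had the value nearest to the threshold after TJP1 (0.18 ± 0.08, adjusted p = 0.0903), and passed it without PBS replicate 3 (0.0435) or OSM replicate 2 (0.0357). With the replicate block, CLDN1 (-0.61, adjusted p = 0.00125), MARVELD2 (0.18, 0.0448) and TJP1 (0.16, 0.0364) were called.

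For EGF+OSM+TGFB, 6 members lay above the sum of the 3 single changes: CLDN4 by 2.16 ± 0.54, OCLN by 1.30 ± 0.31, MARVELD2 by 1.02 ± 0.10, CLDN7 by 0.75 ± 0.29, F11R by 0.58 ± 0.11 and TJP1 by 0.56 ± 0.09. Their adjusted p were 0.00264, 0.00146, 1.4e-08, 0.0409, 8.4e-05 and 1.5e-05, and 48% of all genes departed. CLDN1 (-0.92 ± 0.41, adjusted p = 0.0715) was not called. It passed with the replicate block (3.0e-04), with the compared groups alone (0.0262) and without OSM replicate 3 (0.0434). The CLDN7 call was lost without PBS replicate 2 or 3, EGF replicate 1 or 3, OSM replicate 1 or 3, TGFB replicate 1 or 3 or EGF+OSM+TGFB replicate 2 (adjusted p from 0.0546 to 0.167) and with no filter (0.0716). edgeR called 0 members for the 3-way interaction, which is what remains after single and paired terms, DESeq2 also called 0, with 1 (MARVELD2) at an unadjusted p under 0.05 in edgeR. Of all genes, 3.9% were called. The MARVELD2 value was -0.22 ± 0.11 (adjusted p = 0.286). CLDN4 was at 1.22 ± 0.60 (adjusted p = 0.307), and was called with the replicate block (1.24, adjusted p = 0.00714).

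**Figure D4:**
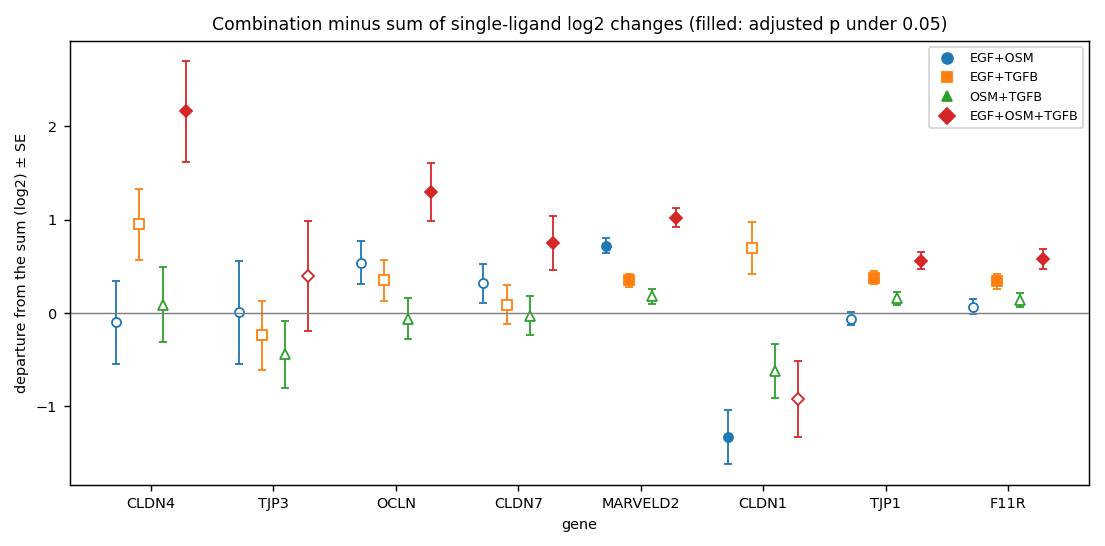
Departure of each combination from the sum of its single-ligand log2 changes, ± SE, for 8 tight junction genes; filled symbols passed the test at an adjusted p under 0.05. CLDN4 lies 2.16 above the sum with the 3 ligands, and CLDN1 lies at -1.33 with EGF+OSM.

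Pearson correlations of log2 CPM over the 27 libraries are given as a description, because libraries of a group share their treatment. They were 0.97 between CLDN7 and TJP3, 0.95 between CLDN7 and OCLN, 0.95 between OCLN and MARVELD2, and 0.93 between CLDN4 and OCLN. CLDN1 and TJP1 correlated at 0.74 with each other, and TJP1 at -0.24 with TJP3 and -0.06 with CLDN7. CLDN1 also correlated at 0.61 with CLDN4, and F11R at 0.35 (TJP3) to 0.60 (CLDN4) with the other 7. Among 10627 genes with a mean over 5 CPM, the 2 most like CLDN4 were LLGL2, a basolateral polarity protein (r = 0.975), and CGN, cingulin, a junction plaque protein (r = 0.969). For TJP3 they were PPL, periplakin (0.992), and SCNN1B, a subunit of the epithelial sodium channel (0.992). For CLDN7 they were SLC44A2 (0.989) and ERBB3, a receptor of the EGF receptor family (0.985), and for OCLN PSCA (0.972) and P3H2 (0.970). For TJP1 they were PIP4K2C (0.968) and RPS6KC1 (0.966), for F11R GPR107 (0.972) and KCTD21 (0.971), and for MARVELD2 ILRUN (0.965) and RAB11FIP1 (0.957). CLDN1 had the least close neighbours, MMP9, a matrix metalloproteinase (0.867), and CRIM1 (0.847).

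The lists that follow are to be read against all genes tested, of which EGF gave 34.9% higher and 38.6% lower, OSM 33.5% and 29.8%, and TGFB 19.9% and 15.8%. Of the other proteins of the junction, 7 of 19 other claudins had enough counts to be tested. EGF gave 0 higher and 4 lower, OSM 1 higher and 2 lower, and TGFB 1 higher and 0 lower. All named claudins were scarce: CLDN8 was at 0.841 ± 0.305 CPM in PBS and 0.0148 ± 0.0256 with OSM (SD, n = 3; log2 change -5.40 ± 0.68, adjusted p = 4.1e-07), and at 0.094 ± 0.0237 with EGF (-3.11 ± 0.50, adjusted p = 1.0e-05). CLDN14 stood at 0.308 ± 0.186 CPM in PBS, fell to 0.125 ± 0.0458 with EGF and rose to 0.877 ± 0.158 with TGFB (adjusted p = 0.0171 and 0.0023), and CLDN16 rose from 0.123 ± 0.0488 to 0.40 ± 0.22 with OSM (adjusted p = 0.0224).

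Of 10 other membrane proteins of the junction, EGF gave 2 higher and 2 lower, OSM 4 higher and 0 lower, and TGFB 3 higher and 0 lower. CXADR, the coxsackievirus and adenovirus receptor, an adhesion protein of the junction, went up from 9.42 ± 0.711 CPM in PBS libraries to 119 ± 25.8 in OSM libraries (3.67 ± 0.19 on the log2 scale, adjusted p = 6.1e-13). It was at 16.2 ± 1.49 CPM with EGF+OSM and at 9.71 ± 2.88 with all 3 ligands. ILDR2, an angulin of the tricellular junction, rose with EGF from 1.42 ± 0.198 to 5.72 ± 0.252 CPM (adjusted p = 1.4e-12) and with OSM to 2.68 ± 0.332 (adjusted p = 4.2e-06). ILDR1, another angulin, was at 0.354 ± 0.146 CPM in PBS and 0.143 ± 0.0682 with EGF (adjusted p = 0.0365). BVES rose with TGFB from 2.56 ± 0.377 to 5.99 ± 0.325 CPM (adjusted p = 6.1e-08), and MARVELD3, the remaining MARVEL protein of the junction, from 6.92 ± 0.656 to 9.56 ± 1.13 CPM (adjusted p = 0.00149).

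Of 12 other scaffolds, EGF gave 6 higher and 6 lower, OSM 1 higher and 5 lower, and TGFB 5 higher and 0 lower. CGN fell with OSM from 43.4 ± 4.63 to 9.87 ± 1.64 CPM (-2.13 ± 0.16, adjusted p = 3.9e-11) and was at 5.23 ± 1.27 with EGF+OSM and 17.1 ± 0.503 with all 3 ligands. CGNL1, paracingulin, fell from 0.466 ± 0.116 to 0.0903 ± 0.0311 CPM with EGF and to 0.196 ± 0.0993 with OSM (adjusted p = 1.6e-04 and 0.0231), and AMOT from 0.178 ± 0.0703 to 0.0503 ± 0.0227 with EGF (adjusted p = 0.0269). CGNL1 and AMOT were scarce: by the library totals, 3 counts stood for 0.0567 to 0.0995 CPM. MAGI1 and MAGI3 rose with TGFB by 0.37 ± 0.10 and 0.29 ± 0.06 on the log2 scale (adjusted p = 0.00456 and 2.2e-04).

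Of 12 polarity genes, EGF gave 1 higher and 6 lower, OSM 1 higher and 7 lower, and TGFB 3 higher and 1 lower. CRB3, the epithelial Crumbs protein of the apical membrane, fell from 24.4 ± 4.38 CPM to 11.7 ± 0.716 with EGF and 11.2 ± 2.0 with OSM (adjusted p = 6.3e-07 and 4.3e-07). PARD3B fell by 1.21 ± 0.16 with EGF (adjusted p = 2.5e-07), and PARD6A by 1.61 ± 0.33 with OSM (adjusted p = 1.4e-04). PARD6A was scarce, at 0.736 ± 0.112 CPM in PBS and 0.238 ± 0.00912 with OSM. PARD6G and PARD3 rose with TGFB by 0.46 ± 0.08 and 0.25 ± 0.06 (adjusted p = 2.9e-05 and 0.00154).

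Of 8 genes for signalling at the junction 7 were tested. EGF gave 2 higher and 2 lower, OSM 4 higher and 0 lower, and TGFB 3 higher and 0 lower. RAB13, a small GTPase of junction traffic, fell by 1.18 ± 0.05 on the log2 scale with EGF (adjusted p = 2.3e-16). YBX3, a Y-box protein that binds ZO-1, rose with OSM from 318 ± 10.4 to 623 ± 31.6 CPM (adjusted p = 2.2e-16).

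The last list held 14 transcription factors known as repressors or activators of epithelial genes, of which 13 were tested. EGF gave 2 higher and 10 lower, OSM 2 higher and 9 lower, and TGFB 3 higher and 6 lower. The list's median log2 change was -1.51 with EGF, -1.52 with OSM and -0.32 with TGFB, where the median of all genes lay between -0.07 and 0.00. As repressors and activators stand in the same list, these values carry no common direction of effect. SNAI1, the Snail repressor, was at 0.182 ± 0.0383 CPM in PBS and 14.9 ± 1.28 with OSM (6.34 ± 0.20, adjusted p = 3.0e-19). It was at 0.358 ± 0.0652 CPM with EGF (0.98 ± 0.36, adjusted p = 0.016) and at 0.551 ± 0.171 CPM with TGFB (1.61 ± 0.33, adjusted p = 4.0e-04). The combinations held 3.62 ± 0.79 CPM with EGF+OSM, 5.79 ± 0.665 with EGF+TGFB, 53.1 ± 1.58 with OSM+TGFB and 52.4 ± 4.81 with all 3. ZEB1, an E-box repressor added after its values were seen, rose by 1.06 ± 0.16 on the log2 scale in EGF libraries, by 1.30 ± 0.16 in OSM libraries and by 1.91 ± 0.15 in EGF+OSM libraries (adjusted p = 1.2e-06, 6.4e-08 and 1.7e-11). With TGFB its change was 0.41 ± 0.16 (adjusted p = 0.055). No other factor of the list was called higher with EGF, OSM or EGF+OSM. ZEB2 was called lower in EGF (-1.92 ± 0.13), OSM (-0.89 ± 0.12) and EGF+OSM libraries (-2.41 ± 0.13). TWIST1 was called lower in the same 3 groups, by 1.52, 1.52 and 1.87 on the log2 scale. SNAI2 was not called in them (0.00, -0.07 and 0.10). It was called higher with TGFB (0.52 ± 0.06, adjusted p = 3.9e-07), EGF+TGFB (0.36 ± 0.06), OSM+TGFB (0.50 ± 0.06) and all 3 ligands (0.44 ± 0.06). The listed Snail and ZEB factors thus had no common direction. ELF3 and EHF, ETS-family factors of epithelia, fell with EGF from 226 ± 30.8 to 27.6 ± 6.79 CPM and from 306 ± 17.0 to 44.8 ± 8.57 CPM (adjusted p = 2.3e-07 and 4.5e-11). EHF also fell with TGFB, to 205 ± 21.2 CPM (adjusted p = 0.0139). With EGF+OSM+TGFB, ELF3 and EHF were at 8.79 ± 3.75 and 11.4 ± 3.17 CPM. KLF4, a Krüppel-like factor of differentiated epithelium, fell with OSM from 43.5 ± 1.53 to 11.9 ± 1.77 CPM (adjusted p = 8.4e-14), was lowest in EGF+OSM at 7.21 ± 0.786 and was at 17.0 ± 1.64 with all 3. TGFB alone raised KLF4 to 64.5 ± 2.32 CPM (0.57 ± 0.10, adjusted p = 4.4e-05). In each of these lists the count stands as a description and was not tested against other genes.

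**Figure D5:**
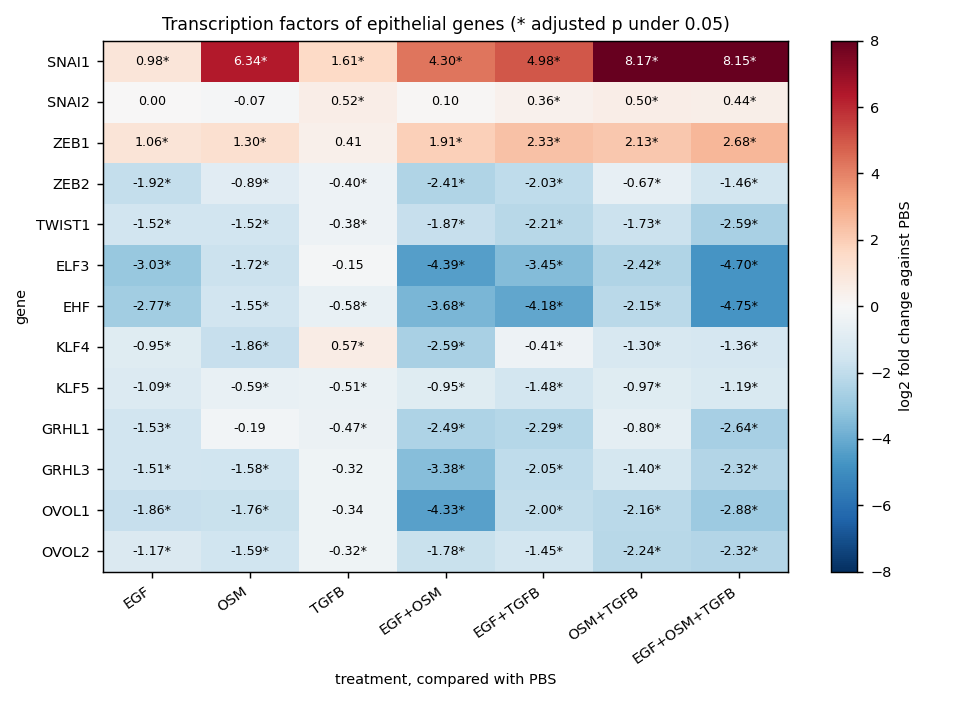
Log2 fold change against PBS of 13 transcription factors of epithelial genes (rows) in 7 treatments (columns); an asterisk marks an adjusted p under 0.05. SNAI1 is above 0 in all 7 columns, with 6.34 for OSM, while EHF is below 0 in all 7.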

How the data were processed

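Polyadenylated RNA of 27 MCF10A libraries was measured by stranded RNA-seq, per the labels' protocols. The submitters' processing notes name Trim Galore 0.4.3, cutadapt 1.10, FastQC 0.11.5, kallisto 0.46.2 and R 3.5.0, and the builds GRCh38.p5 and hg38. The deposited table holds estimated counts per Ensembl gene, in whole numbers, per the file headers and values. Rows without a symbol held 0.324% of the counts and were kept under their identifiers. Here, rows sharing a symbol were summed, genes were filtered with filterByExpr (15575 left), and a mean per group was fitted over all 27 libraries with edgeR 4.0.16 in R 4.3.3 (TMM, glmQLFit robust, glmQLFTest). The adjusted p-values are Benjamini-Hochberg over all genes tested, and a change was called under 0.05. TMM factors ran from 0.867 to 1.12, residual degrees of freedom were 18 and the common biological coefficient of variation was 7.83%. Counting error is a lower limit, since no molecular identifiers are named. The fit was tested on simulated data.

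The members and the gene lists (other claudins, other membrane proteins, scaffolds, polarity, signalling, transcription factors, cell markers) were chosen with earlier results of these data known. All 9 members are named. From each list, the 2 called genes with the largest log2 change per single ligand are named, except 2 signalling genes that are not reported here, and for each member the 2 genes with the highest Pearson r over the libraries. Beyond the rule of the largest changes, ZEB1, ZEB2, TWIST1 and SNAI2 are also named. Gene coordinates and transcript lengths are from GENCODE v44 on GRCh38. Promoter windows are from RefSeq. Alternatives were RLE size factors, upper-quartile scaling, no filter, DESeq2 1.42.0, a replicate block, rows as deposited, only the compared groups, and each library left out.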

Additional observations from a re-analysis of the deposited data

Results flagged for a closer look

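The effect of EGF on 4 genes differed with the ligand given together with it, by the test of the difference itself. CLDN1 changed by 0.34 with EGF on PBS and by -0.99 with EGF on OSM, a difference of -1.33 (adjusted p = 0.00106). MARVELD2 changed by -0.75 on PBS and by -0.03 on OSM, a difference of 0.72 (adjusted p = 2.6e-08), and by -0.40 on TGFB, a difference of 0.35 (adjusted p = 7.6e-04). TJP1 changed by -0.03 on PBS and by 0.35 on TGFB, a difference of 0.38 (adjusted p = 1.0e-04). F11R changed by -0.60 on PBS and by -0.26 on TGFB, a difference of 0.34 (adjusted p = 0.00157). Each difference holds equally for the second ligand, since it is the same contrast: OSM changed CLDN1 by 0.21 on PBS and by -1.13 on EGF. All values are log2, tested with edgeR.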

How the results depend on the processing

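Of the 1416 member values with 1 library left out, 1329 kept their direction and side of the threshold, 34 lost and 11 gained a call and 42 changed sign. Of the 1232 under the other settings the numbers were 1166, 16, 38 and 12. None of the 54 sign changes touched a called value. With 1 library left out, the log2 values of results that changed sign had these ranges. CLDN1 ran from -0.05 to 0.16 for EGF added to OSM+TGFB, -0.20 to 0.08 for PBS against T0 and -0.16 to 0.16 for TGFB added to OSM. CLDN4 ran from -0.05 to 0.44 for TGFB added to OSM, -0.45 to 0.23 for the departure for EGF+OSM and -0.15 to 0.34 for the departure for OSM+TGFB. CLDN7 ran from -0.23 to 0.02 for TGFB added to EGF, -0.04 to 0.23 for the departure for EGF+TGFB and -0.17 to 0.13 for the departure for OSM+TGFB. F11R ran from -0.06 to 0.09 for the 3-way interaction, -0.04 to 0.02 for EGF+OSM+TGFB against PBS and -0.01 to 0.02 for OSM added to TGFB. MARVELD2 ran from -0.06 to 0.02 for EGF added to OSM and -0.01 to 0.06 for TGFB added to OSM. OCLN ran from -0.12 to 0.11 for EGF added to OSM+TGFB and -0.21 to 0.12 for the departure for OSM+TGFB. TJP1 ran from -0.02 to 0.12 for the 3-way interaction. TJP3 ran from -0.26 to 0.38 for the departure for EGF+OSM and -0.02 to 0.76 for the departure for EGF+OSM+TGFB. Under other settings, F11R with OSM added to TGFB was at -0.01 (RLE size factors and DESeq2), -0.05 (upper-quartile scaling) and -0.02 (compared groups only), and its 3-way interaction at -0.02 (no filter). MARVELD2 with TGFB added to OSM was at -0.01 (upper-quartile) and -0.05 (rows as deposited), and OCLN with EGF added to OSM+TGFB at 0.01 (no filter) and 0.03 (rows as deposited). TJP1 was at 0.02 with EGF (compared groups only) and 0.01 for the EGF+OSM departure (rows as deposited), and TJP3 at -0.01 for that departure (compared groups only). Members called ran from 2 to 4 for TGFB, 2 to 5 for PBS against T0, 3 to 5 for the EGF+TGFB departure and 0 to 1 for that of OSM+TGFB with 1 library left out, and DESeq2 called 1 in the last. Upper-quartile scaling moved the median log2 change of all genes from -0.07 to -0.14 with EGF and from -0.04 to -0.14 with EGF+TGFB, which bears on the small changes of F11R and TJP1. With RLE scaling, CGN was the third gene by likeness to CLDN4.

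With the replicate number as a replicate block, 21 of 176 member results gained a call and 0 lost one. Among them was CLDN7 with TGFB alone (-0.19, adjusted p = 0.0255), on OSM (-0.22, 0.0119) and on EGF+OSM (0.25, 0.00521). The members departing from the sum then numbered 4 (EGF+OSM), 6 (EGF+TGFB) and 3 (OSM+TGFB) in place of 2, 3 and 0, and 1 (CLDN4) passed the 3-way test where 0 did. The cause was not tested. Deviations of same-numbered libraries correlated at -0.027 to 0.178 (median 0.058, 23 of 108 pairs over 0.1), and the main fit did not pair the libraries by number. However, 26 of 27 libraries correlated best with their own number. Whether the numbers mark a shared batch was not tested. Results described above as not called therefore hold for the fit without the block, and some of them were called with it.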

Other observations

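In several members the library order repeated across groups. Replicate 2 was the highest and replicate 3 the lowest of the 3 CLDN4 libraries in 9 of 9 groups. CLDN7 and OCLN had replicate 2 highest in 9 groups and replicate 3 lowest in 8, and CLDN1 had 8 and 8. Among the 15567 other genes tested, replicate 2 was highest in 8 or 9 groups for 1.56%, replicate 3 was lowest in 8 or 9 groups for 3.2%, and both held for 0.437%. The labels name no batch for the replicate numbers, and the source of this order was not tested.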
